A study of Glycine max with 12 samples.

Results

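The nitrate response of soybean roots was compared with that of nodules, gene by gene, to find the transcripts for which the organs responded differently. All 12 arrays of the series were used. They came from soybean (Glycine max cv. Nourin No. 2) inoculated with Bradyrhizobium diazoefficiens USDA110 and grown hydroponically without nitrogen. At 19 days after planting the solution was changed for one with 5 mM nitrate or for the nitrogen-free control, and organs were harvested 24 h later. Roots were the lower part of the root system, without visible nodules, and nodules were the large ones of the upper part. Each organ had 3 control arrays and 3 nitrate arrays, and each array carried RNA pooled from 3 plants. Plants were separated into roots and nodules, so both organs came from the same plants. The organ difference of a probeset (here 1 spotted probe) is its log2 change with nitrate in roots minus its log2 change with nitrate in nodules. A probeset is called higher in roots, or higher in nodules, when the change was the more positive one in that organ, whether because it rose more there or fell less. Of 42748 probesets that are not controls, 36425 were marked as well above background throughout at least 1 group and gave a value.

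Nitrate taken up by a plant is reduced to nitrite by nitrate reductase and to ammonium by nitrite reductase, and the ammonium is then built into glutamine and glutamate by glutamine synthetase and glutamate synthase. A soybean nodule receives its ammonium by another route, from the nitrogen fixation of the bacteria living in its cells, and is supplied with sucrose from the shoot. Nitrate in the rooting medium is known to slow the growth of soybean nodules and to lower their nitrogen fixation while the roots take the nitrate up and use it.

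The mean signal of an array lay between 2710.9 and 4592.8 before each array was scaled to a mean of 2500, and between 79.2% and 84.5% of the probesets of an array were well above background. The arrays sat on 3 slides, and slide and group overlapped only in part. Slide 1 carried control root array 1 and all nitrate-treated root arrays, slide 2 carried control root arrays 2 and 3 with nitrate-treated nodule arrays 1 and 2, and slide 3 carried the control nodule arrays with nitrate-treated nodule array 3. With slides as blocks the root change therefore rested on control root array 1 and the nodule change on nitrate-treated nodule array 3. Replicates spread more in roots than in nodules. The median SD over probesets on the log2 scale was 0.41 for control and 0.22 for nitrate roots, against 0.08 for control and 0.14 for nitrate nodules. Control root array 2 was the dimmest, with a median deviation of -0.31 from the mean of the control root arrays, against 0.23 and 0.08 for the other two. Probesets are named by the descriptions in the lists that the study drew from these same arrays, which cover 2964 of the tested probesets. Leghemoglobin probesets, which the study reports as far higher in nodules than in roots, were not identified among the descriptions used here. The identity of the nodule samples was checked on nodulin-21 alone, which also had a strong signal in control roots and so is a weak check. That probeset (AW203733.1_45) read 33681, 36492 and 35714 in control nodules and 13311, 14373 and 13976 in control roots.

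The organ difference passed the test, at an adjusted p under 0.05 and above 2-fold, for 5337 probesets, which was 14.7% of those tested. Of these, 3402 (9.34%) were higher in roots and 1935 (5.31%) were higher in nodules. Above 4-fold, 912 (2.50%) were higher in roots and 461 (1.27%) in nodules. The median organ difference over all tested probesets was 0.15 on the log2 scale, from a median change of 0.10 in roots and -0.08 in nodules, so the higher-in-roots side starts from a small shift of all probesets. With arrays scaled on the 75th percentile that median was 0.02, and 56.0% of the 4-fold calls were higher in roots, against 66.4% as scaled here. Quantile normalization gave 54.2% and background correction by normexp 57.9%, and array weights turned the split, with 45.6% of the 4-fold and 49.7% of the 2-fold calls higher in roots. The slide as a fixed block left 1459 probesets higher in roots and 1093 higher in nodules, and 2086 of its calls were shared with those given above, none with the opposite sign. In these pooled organ samples, fewer cells of a type and less RNA per cell cannot be told apart.

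Across probesets, a change in one organ said little about the change in the other. The log2 changes of roots and nodules had a Pearson correlation of -0.02 and a Spearman correlation of -0.11 over 36425 probesets, which share arrays and are not independent replicates, and 45.0% had the same sign in both organs. The plot of root against nodule changes shows a long arm of points along the root axis, reaching a root change of 10.41, with nodule values near 0. No arm of that length runs along the diagonal.

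**Figure D1:**
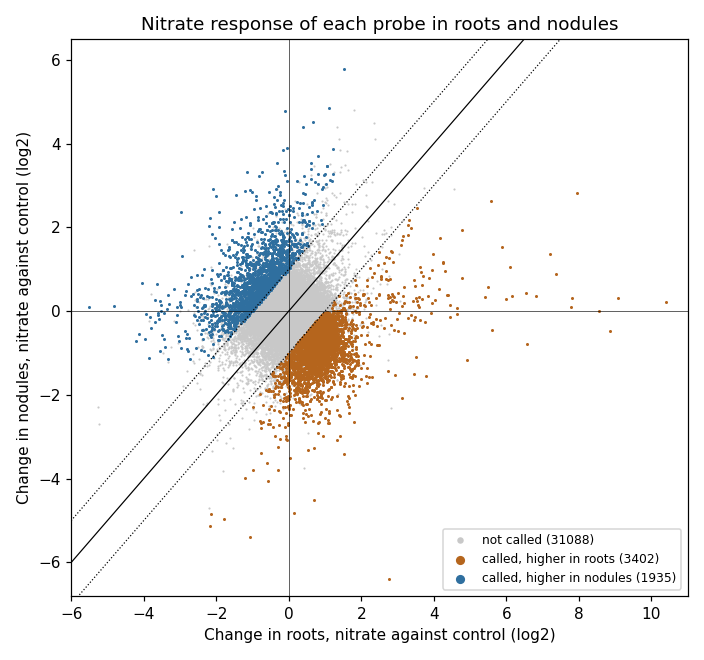
Log2 change with nitrate of each of 36425 probesets in roots (x axis) and nodules (y axis), each over 3 nitrate and 3 control arrays. Brown points are the 3402 probesets called higher in roots, blue points the 1935 called higher in nodules and grey points the others. The solid line marks equal change and the dotted lines a 2-fold organ difference. Brown and blue points lie on opposite sides of the line, and the farthest points to the right have nodule values near 0.

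Most called differences came with a change that passed in one organ only, or with changes that passed in neither organ by itself. Of the probesets higher in roots, 800 were raised in roots alone, 821 were lowered in nodules alone, 95 rose in roots and fell in nodules, and 1657 passed in neither organ by itself. Among those higher in nodules, 700 were lowered in roots alone, 469 were raised in nodules alone, 56 fell in roots and rose in nodules, and 706 passed in neither. Over all tested probesets, 1294 (3.55%) were raised and 1497 (4.11%) lowered in roots, and 900 (2.47%) were raised and 1421 (3.90%) lowered in nodules. These counts use the spread pooled over all 12 arrays. With each organ fitted on its own 6 arrays, the calls with a change in roots alone fell from 1500 to 477, and those with a change in nodules alone went from 1290 to 1709.

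Responses shared by the organs were the smaller group. Nitrate changed 188 probesets in the same direction in both organs, 100 of them upward. In 33 of these the organ difference was itself called, in 29 its 95% interval lay within 2-fold either way, and in 126 neither held, so that the size of the change could not be told to be alike or unlike.

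The steps that turn nitrate into ammonium had the greatest median organ difference of the 21 gene lists described here. Of 9 probesets for nitrate reductase, nitrite reductase, the molybdenum cofactor of nitrate reductase and the siroheme of nitrite reductase, 8 were well above background on arrays of both organs. All 8 were called higher in roots, with a median root change of 6.69 and a median nodule change of 0.33 on the log2 scale. None of the 8 passed the test in nodules, although all 8 nodule values were above 0. The ninth, a molybdopterin probeset, was not read above background in nodules. The study chose them for their rise on the root arrays, so only the nodule side is free of that choice. Among the described probesets as a whole, 66.5% were called in one direction or the other, 41.4% higher in roots and 25.1% higher in nodules. The share depends on the list a probeset was described in. Higher in roots were 77.9% of the probesets that the study listed as raised in roots. So were 70.2% of the 742 read from its list of those lowered in nodules, which are part of that list. Higher in nodules were 56.7% of those it listed as lowered in roots and 52.0% of those raised in nodules. Most gene groups here come largely from one of these lists, so a count near its list's share is no result about the group.

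Nitrite reductase, the plastid enzyme that carries nitrite to ammonium, rose steeply in roots and hardly moved in nodules. The probeset GMFL01-08-I05-R_317 read 115, 96.7 and 123 in control roots and 57387, 58834 and 64402 in roots given nitrate. In nodules it read 2030, 2263 and 1981 without nitrate and 2576, 2595 and 2607 with it. The root groups were 542-fold apart and the nodule groups 1.24-fold, and the organ difference was 8.77 ± 0.18 (log2 ± SE, 3 arrays per group, adjusted p = 1.4e-09). Control nodules already held more of this transcript than control roots did, and nitrate-treated roots more than either nodule group. A second probeset, GMFL01-12-C15-R_181, gave 7.69 ± 0.16, and the third, BG155089.1_555, stayed near background in control roots, where no array read it well above, and rose at least 382-fold in roots against 1.16-fold in nodules. A lower bound for a fold takes, on each array of the dim group, the larger of the signal and the lowest signal that was well above background there.

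Nitrate reductase, which makes the nitrite, followed the same course from a more variable start. The INR1 probeset GMFL01-21-N18-R_440 read 968, 3160 and 533 in control roots against 73402, 82520 and 98479 with nitrate, and 19756, 21771 and 21846 in control nodules against 27534, 24536 and 29888 with nitrate. Control root array 2 was the highest of the control roots, and the root groups still did not overlap. The difference was 5.79 ± 0.68 (adjusted p = 0.0011), and the BCNR-A probesets BF069531.1_458 and BU927103.1_508 gave 6.47 ± 0.72 and 6.13 ± 0.75. Uroporphyrin III methyltransferase, which opens the branch to siroheme, rose 15.5-fold in roots and 1.14-fold, not past the test, in nodules (GMFL01-16-A20-F_423, difference 3.77 ± 0.31). Of the molybdopterin probesets, CO985443.1_680 differed by 1.66 ± 0.23 and CA936913.1_509 was well above background only in nitrate-treated roots, where it was at least 1.56-fold higher than in control roots.

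The uptake probesets were less one-sided than those for reduction, but they were also drawn from more lists. Of 8 probesets for nitrate transporters, oligopeptide symporters and CLC anion channels, 4 were higher in roots and 1 in nodules, and 5 were themselves raised in nodules. The study had listed 6 of the 8 as raised in roots and 4 as raised in nodules. All 9 reduction probesets came from its raised-in-roots list and none from the other. The contrast between the groups thus follows in part from that choice. The high-affinity transporter NRT2 (GMFL01-19-H08-R_500) rose in both organs. Its signal was 3906, 5362 and 4038 in control roots, 80615, 117810 and 116120 in roots given nitrate, 419, 146 and 129 in control nodules and 1434, 2018 and 1186 in nodules given nitrate. The rise was 23.5-fold in roots and 7.58-fold in nodules, and the difference of 1.63 (95% interval 0.40 to 2.87) missed the threshold at an adjusted p of 0.063 (0.048 with replicate numbers as blocks within each organ). An H+/oligopeptide symporter, GMFL01-14-C18-R_644, also rose in both, 48.2-fold in roots and 6.2-fold in nodules, and here the difference passed (2.96 ± 0.44, adjusted p = 0.0029). NRT1-3 (GMFL01-10-M04-R_359) went the other way and fell in roots only, from 20935, 12604 and 20936 to 6301, 6085 and 6871, while nodules read 11344, 10549 and 10437 and 10312, 10057 and 11864. The CLC probesets split. AW760651.1_483 rose 11.6-fold and 5.49-fold in roots and nodules, whereas GMFL01-47-K04-F_321 rose 3.53-fold in roots, and 1.24-fold, not past the test, in nodules.

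Most probesets of the next step, ammonium assimilation, were also called higher in roots. Of 9 probesets for glutamine synthetase and glutamate synthase, 8 of which the study had listed as raised in roots, 8 were higher in roots and none in nodules. All 9 were raised in roots, which that choice fixed for most of them. The count of 8 is not far from the list's own share of 77.9%. The glutamine synthetase precursor GMFL01-06-M21-R_347 read 1052, 512 and 839 in control roots and 18801, 17747 and 21153 in roots given nitrate. Nodules read 18637, 19492 and 19910 without and 17488, 18990 and 18961 with nitrate, so nitrate-treated roots reached the nodule level, and the nodule groups overlapped, with nitrate array 1 a little below the controls. The organ difference was 4.71 ± 0.31 (adjusted p = 4.4e-05). Cytosolic GSbeta1 (GMFL01-16-C01-R_584) changed far less, 2.39-fold in roots and 1.17-fold in nodules, a difference of 1.03 ± 0.17 that was called in 9 of 12 fits with 1 array left out. For NADH-dependent glutamate synthase, CA783200.1_620 rose 15.6-fold in roots and 1.98-fold in nodules. The glutamate synthase probeset CX702963.1_699 rose in both organs, 4.1-fold and 2.11-fold, and its difference of 0.96 was just under 2-fold.

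Asparagine synthesis rose in both organs. All 8 asparagine synthetase probesets, for the enzyme that makes the amide exported from roots, were raised in both organs. Their medians were 2.89 in roots and 1.90 in nodules on the log2 scale, and 3 were called higher in roots. The study had listed all 8 as raised in roots and 7 as raised in nodules, so the shared rise was largely fixed by that choice. Called higher in roots were 77.9% of its raised-in-roots list and 3.4% of its raised-in-nodules list. For AS1, BI946107.1_266 read 4435, 3408 and 3792 in control roots, 33939, 35983 and 43830 in roots given nitrate, 5582, 5958 and 7671 in control nodules and 21349, 27519 and 31493 in nodules given nitrate. It rose 9.77-fold in roots and 4.17-fold in nodules. The extra rise in roots was 1.23 ± 0.27 (adjusted p = 0.013). With the slide as a fixed block it was 0.78 (adjusted p = 0.22), and none of the 8 was then called. The 5 that were not called had differences of 0.55 to 0.98, and a missed threshold does not show equal responses.

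Transcripts for asparagine breakdown fell further in nodules than in roots. L-asparaginase (CD409922.1_668), which releases ammonium from asparagine, read 18550, 15393 and 16995 in control roots and 6682, 7497 and 7796 in roots given nitrate. In nodules the signal went from 6907, 6001 and 5025 to 606, 475 and 179. This was a 2.32-fold fall in roots and a 15.9-fold fall in nodules, and the difference was 2.78 ± 0.51 (adjusted p = 0.0061). Nitrate-treated nodule array 3 was the lowest of its group. GMFL01-08-F10-R_584 gave 2.12 ± 0.39, and CF805961.1_241, with 2.01, missed the threshold at an adjusted p of 0.052. It was called at 3.65 (adjusted p = 0.0039) with the slide as a fixed block, at 2.78 (0.022) with the slide as a random block, and at an adjusted p of 0.027 with replicate blocks within each organ. Another asparaginase probeset, BE658128.1_628, was not well above background on any nodule array, so its fall of 3.92-fold in roots has no nodule value to be set against.

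**Figure D2:**
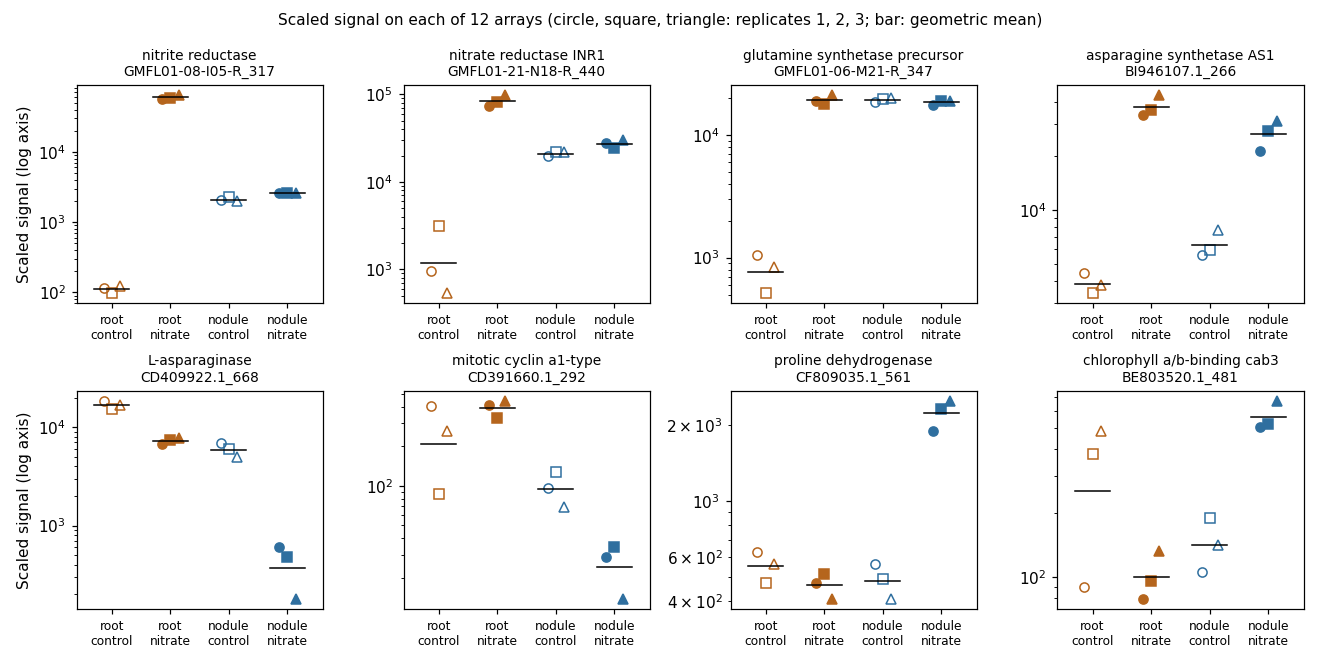
Scaled signal (log axis) of 8 named probesets on each of the 12 arrays, by organ and treatment. Brown symbols are root arrays and blue symbols nodule arrays, open for control and filled for nitrate, the shape gives the replicate number and the bar the geometric mean of 3 arrays. Nitrite reductase, nitrate reductase and the glutamine synthetase precursor move in roots only, asparagine synthetase rises and asparaginase falls in both organs, and the cyclin, proline dehydrogenase and cab3 panels move mainly in nodules.

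The pathways that feed nitrite reduction with reductant and ammonium assimilation with carbon also came mainly from the raised-in-roots list, with 10 and 13 members. Of 13 probesets of the oxidative pentose phosphate pathway and its plastid sugar-phosphate carriers, 10 were higher in roots and 1 in nodules. Their medians were 1.54 in roots and -0.11 in nodules. The count of 10 is close to the list's own share of 77.9%. Not one of the 11 that were listed for their root change had a nodule value above 0, against 271 of the 958 probesets of the raised-in-roots list. The nodule median of the 11 was only -0.14, however, and that of the whole list -0.40. Glucose-6-phosphate dehydrogenase makes NADPH at the entry of that pathway. BI968161.1_483 read 1600, 735 and 1196 in control roots, 10914, 11703 and 14950 in roots given nitrate, 2978, 2877 and 3023 in control nodules and 2706, 2742 and 2593 in nodules given nitrate, a difference of 3.61 ± 0.34 (adjusted p = 0.00036). The probesets BQ094170.1_453 and BQ629590.1_508 for the same enzyme gave 3.81 ± 0.38 and 3.68 ± 0.37, and GMFL01-18-L05-R_174, also described as this enzyme, was called higher in nodules at -1.34.

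Of 17 probesets for glycolysis and organic acid metabolism, 13 were higher in roots and 2 in nodules. As 13 of the 17 came from the raised-in-roots list, that count is close to the list's own share of 77.9%. Phosphoenolpyruvate carboxylase PEPC4, which refills the organic acids drawn off for amino acids, read 723, 209.7 and 660.1 in control roots and 6841, 10059 and 12689 in roots given nitrate (GMFL01-28-O12-R_277). Nodules read 2048, 2065 and 1729 and 2424, 2796 and 2418, and the difference was 3.98 ± 0.57 (adjusted p = 0.0026). The carboxylase kinase PPCK4 (CA783260.1_595), which activates PEPC by phosphorylation, was called higher in nodules at -1.50. A probeset similar to the nodule-enhanced malate dehydrogenase of pea (BI968929.1_166) changed by 1.96 in roots and 0.15 in nodules. Pyrophosphate-dependent phosphofructokinase (AW351152.1_664) rose 3.96-fold in roots, with nodules at -1.37 on the log2 scale, which did not pass. With the slide as a fixed block, 7 glycolysis and 6 pentose phosphate probesets were still called higher in roots.

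Sucrose and starch genes did not share a direction, with 3 of 16 probesets higher in roots and 4 in nodules. Over all described probesets 41.4% were higher in roots and 25.1% in nodules. The study had listed 5 of the 16 as raised in roots, 1 as lowered in roots, 6 as raised in nodules and 4 as lowered in nodules. All 3 probesets of the beta-amylase bmy1 were higher in nodules, the largest difference being -1.71 ± 0.43 for GMFL01-29-C05-R_524, and the bmy2 probeset GMFL01-21-F05-R_544 was raised in both organs, by 2.15 and 2.47. Of the trehalose-6-phosphate synthase probesets, BE821385.1_549 was higher in nodules (-1.77 ± 0.45) and GMFL01-17-E09-R_502 was higher in roots (1.43). The count higher in nodules was 1 with the slide as a fixed block and 0 without control nodule array 3.

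Ribosome probesets made up the largest gene group, 91 of the 93 being drawn from those that the study listed as raised in roots. Of these 93 probesets for ribosomal proteins and ribosome assembly, 89 were called higher in roots and 1 in nodules, and the share called higher in roots over that whole list was 77.9%. Ribosome probesets outside the study's lists carry no description here and were not counted. The 93 had a median change of 1.22 in roots and -0.56 in nodules, and of the 92 listed for their root change, 1 had a nodule value above 0, against 271 of the 958 probesets of the raised-in-roots list. Few passed in nodules alone, where 5 of the 93 were lowered at above 2-fold. Array by array, the list median stood at 1.40, 1.04 and 1.28 above the control root mean on the nitrate-treated root arrays, with the control arrays at 0.47, -0.52 and 0.05. It was -0.44, -0.41 and -0.84 on the nitrate-treated nodule arrays, with the controls at 0.14, -0.08 and -0.07. All nitrate arrays lay outside their controls in both organs, in opposite directions.

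Among them, the nucleolar histone deacetylase HD2-P39 (GMFL01-32-I06-R_443) rose in roots and fell in nodules. It read 2619, 1367 and 2337 in control roots and 7512, 5574 and 7312 with nitrate, and 3157, 2145 and 2141 in control nodules and 1294, 1280 and 702 with nitrate, a difference of 2.94 ± 0.43 (adjusted p = 0.0027). A WD40 subunit of the complex that processes 18S rRNA (BU544512.1_566) rose 4.65-fold in roots, and its difference was 2.97 ± 0.62. The slide as a fixed block lowered the ribosome count from 89 to 54.

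Of 43 probesets for chaperones, which fold newly made proteins, 33 were higher in roots and 3 in nodules. As 34 of the 43 came from the raised-in-roots list, that count is close to the list's own share of 77.9%. The mitochondrial chaperonin Cpn60 probeset CF807811.1_573 was raised in roots, from 237, 57.6 and 156 to 469.9, 349 and 397, and lowered in nodules, from 635, 536 and 554 to 191, 215 and 68.6. Control root array 2 and nitrate-treated nodule array 3 were the lowest of their groups. The difference was 3.67 ± 0.72 (adjusted p = 0.0079), and chaperonin 60 (BI946271.1_440) gave 3.53 ± 0.69.

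**Figure D3:**
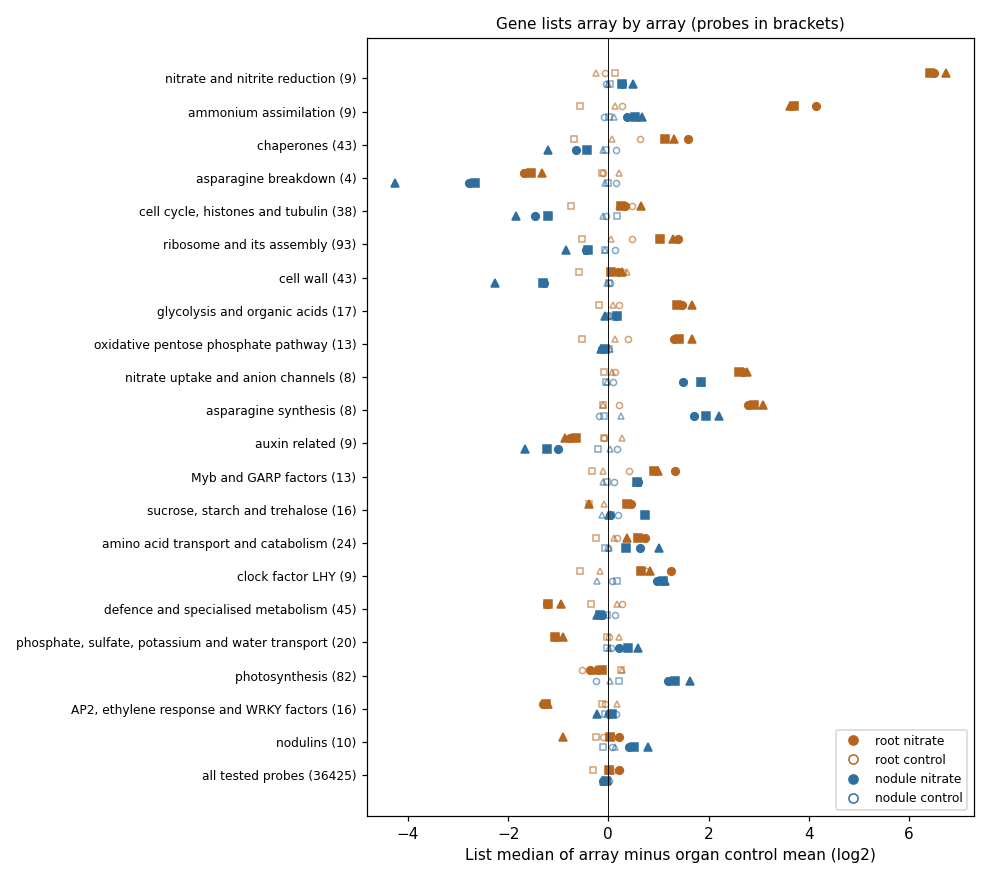
Median over the probesets of each gene list of the log2 signal on an array minus the mean of the 3 control arrays of that organ, with the number of probesets in brackets. Brown symbols are root arrays and blue symbols nodule arrays, filled for nitrate and open for control, and circle, square and triangle are replicates 1, 2 and 3. Ribosome medians lie at 1.04 to 1.40 on the nitrate-treated root arrays and at -0.84 to -0.41 on the nitrate-treated nodule arrays, while photosynthesis medians rise on the nodule arrays alone.

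Cell division genes were described here mainly because they fell in nodules, since 35 of the 38 came from the study's list of probesets lowered there. Of the 38 probesets for cyclins, kinesins, histones and tubulins, 35 were called higher in roots and none in nodules. Over the 742 probesets read from that list, 70.2% were higher in roots. The nodule fall, with a median of -1.50, was fixed by the choice. The nitrate-treated root arrays had list medians of 0.34, 0.24 and 0.65, within the range of the control arrays (0.46, -0.74 and 0.21) but for the last. Of the 34 listed for their nodule change alone, 29 had a root change above 0, against 453 of the 742 probesets read from that list. The mitotic cyclin of a1-type (CD391660.1_292), which drives cells through division, read 96.5, 128 and 69.5 in control nodules and 29.0, 34.5 and 13.8 in nodules given nitrate. Roots read 404, 86.1 and 263 and 411, 329 and 443, where the groups overlapped. Its difference was 2.89 ± 0.73 (adjusted p = 0.021). CDC6, which licenses origins of DNA replication, fell 3.65-fold in nodules (CX701414.1_810, difference 2.99 ± 0.69). The mitotic cyclin of a2-type (BE823273.1_524) fell below background on all nitrate-treated nodule arrays, by at least 2.53-fold. With the slide as a fixed block 11 of the 38 were called, and without control nodule array 2, 21.

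Of 43 cell wall probesets, 35 of them from the same list, 28 were higher in roots and 1 in nodules. That share was below that of the part of the list that was read. A xyloglucan transferase, which cuts and rejoins wall polymers during growth, fell 13.9-fold in nodules (AW459363.1_318). It read 169, 174 and 206 in control nodules and 29.2, 20.6 and 3.75 in nodules given nitrate, the last array not well above background, against 25.8, 35.4 and 61.3 and 27.6, 23.5 and 45.8 in roots. The difference was 3.49 ± 0.90 and was called in 9 of 12 fits with 1 array left out. An endo-1,3-beta-glucanase, GMFL01-08-A24-R_263, fell 6.27-fold in nodules (difference 3.47 ± 0.48). An alpha-expansin, which loosens walls (GMFL01-22-A11-R_322), rose 3.66-fold in roots, with a difference of 2.92 ± 0.52. The count of 28 fell to 15 or 16 without nitrate-treated root array 3 or any one of the control nodule arrays.

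Photosynthesis genes gave the largest count on the nodule side among the 21 lists. Of 82 probesets for chlorophyll-binding proteins, photosystem subunits and the small subunit of Rubisco, 57 were called higher in nodules and none in roots. All but 1 came from the study's list of probesets raised in nodules, which fixed the nodule rise, and 52.0% of that list was called higher in nodules. The 82 had a median nodule change of 1.38 and a median root change of -0.27. The nitrate-treated nodule arrays had list medians of 1.19, 1.34 and 1.64. In roots the medians were -0.53, 0.24 and 0.27 on the control arrays and -0.37, -0.12 and -0.25 on the nitrate-treated arrays. Control root array 1, on the slide of the nitrate-treated root arrays, was thus the lowest of all, and the lower root side rested on control root arrays 2 and 3. Of the 74 listed for their nodule change alone, 22 had a root change above 0, against 348 of the 646 on the whole list, and 8 probesets were raised in roots too.

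The chlorophyll a/b-binding protein cab3 (BE803520.1_481), an antenna protein of chloroplasts, read 106, 189.8 and 142 in control nodules and 508, 521 and 673 in nodules given nitrate. In roots it read 90.5, 378 and 486 without nitrate and 79.0, 96.2 and 132 with nitrate, and these groups overlapped. The difference was -3.34 ± 0.73 (adjusted p = 0.012), and -2.10 with the slide as a fixed block (adjusted p = 0.043). A second cab3 probeset, BM891007.1_224, gave -2.91 ± 0.62. With that block 25 of the 57 calls were left. By contrast, an EST similar to a Rubisco small subunit gene (BI469410.1_205) was raised in both organs, 2.66-fold in roots and 3.61-fold in nodules, and was not called different (-0.44 ± 0.25).

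The clock gene LHY, a morning-expressed Myb factor in Arabidopsis, showed no organ difference that passed. None of its 9 probesets was called in either direction by limma, with median changes of 0.89 in roots and 1.06 in nodules, and all 8 that were listed for their nodule change alone had a root value above 0. Their organ differences ran from -1.25 to 0.31. At an unadjusted p limma called 1 of them higher in nodules, as did the t-test of the methods, which called 0 after adjustment. Other adjusted limma fits called up to 3 higher in nodules (3 with array weights, 2 with 75th percentile or quantile scaling, 1 with the slide as a block, and 0 to 2 without 1 array) and none higher in roots.

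Among regulators, the greatest differences were those of probesets similar to GARP-type Myb factors. BQ296965.1_2, similar to At1g13300 (HRS1, a repressor induced by nitrate in Arabidopsis), read 13.6, 6.55 and 11.4 in control roots, where 2 arrays were well above background, and 426, 461 and 397 in roots given nitrate. Nodules read 140.3, 199 and 138 and 195, 212 and 189.6, with overlapping groups, and the difference was 5.07 ± 0.35 (adjusted p = 5.9e-05). BF009157.1_153, similar to the related At1g25550, rose at least 20.1-fold in roots and 1.48-fold, not past the test, in nodules. A GATA-type factor (BI427426.1_495) rose 21-fold in roots, from 132, 103 and 138 to 2753, 2545 and 2464. It read 923, 1095 and 877 in control nodules and 1179, 1394 and 1205 in nodules given nitrate, and the difference was 4.0 ± 0.22 (adjusted p = 7.1e-06). In the whole Myb list, 3 of 13 were higher in roots and 4 in nodules. The study had listed 7 of the 13 as raised in roots, 2 as lowered in roots, 4 as raised in nodules and 1 as lowered in nodules. Over all described probesets the shares were 41.4% higher in roots and 25.1% higher in nodules. GMFL01-27-E10-R_314, with the At1g13300 description too, changed by 2.56 in roots and 1.52 in nodules and was not called different.

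Among AP2, ethylene response and WRKY factors, 9 of 16 were higher in nodules and 2 in roots, and 11 were lowered in roots. The study had listed 11 of the 16 as lowered in roots, and 56.7% of that list was called higher in nodules. The count of 9 is thus close to the list's own share. An ethylene response factor similar to At1g06160 (BQ080756.1_469) had the steepest root fall among these factors. It read 2587, 1805 and 3474 in control roots and 126, 139 and 257 in roots given nitrate, against 276, 133 and 223 and 162, 211 and 210.4 in nodules, where the groups overlapped. The difference was -3.87 ± 0.49 (adjusted p = 0.0015). DREB1 (GMFL01-09-F04-R_459), of a family known for cold and drought responses, was instead raised in nodules, 3.32-fold, from 344, 281 and 274 to 782, 974 and 1273, while roots went from 5606, 7809 and 6393 to 3780, 4525 and 3940. Its difference was -2.42 ± 0.28.

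Defence and specialised metabolism held members on both sides, 10 of 45 higher in roots and 18 in nodules, and 23 were lowered in roots. The study listed 22 of the 45 as lowered in roots and 12 as lowered in nodules. Called higher in nodules were 56.7% of its lowered-in-roots list. Higher in roots were 70.2% of the probesets read from its lowered-in-nodules list. Lipoxygenases, which oxidise fatty acids, were split between the 2 sides. LoxN3 (BE331586.1_538) was raised in roots, from 291.6, 110.5 and 294 to 2135, 2240 and 2601, and lowered in nodules, from 667, 664 and 477 to 221, 247 and 174 (difference 4.95 ± 0.47, adjusted p = 0.0004). Lipoxygenase-1 (CK768357.1_636) moved in the opposite sense at low signal. It read 41.5, 36.9 and 37.1 in control nodules and 100.3, 132 and 159 with nitrate, and in roots it was well above background on 1 control array and on no nitrate array.

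Several other defence genes passed the test in roots alone. Glutathione S-transferase GST 5 (GMFL01-28-N08-F_502), an enzyme of detoxification (on 2 of 3 nitrate-treated root arrays well above background), went from 148, 159.9 and 171 to 10.3, 21.9 and 9.85 in roots and from 177, 173 and 139.5 to 155, 153 and 152 in nodules. The 12.2-fold root fall gave a difference of -3.53 ± 0.37 (adjusted p = 0.00062). All 3 probesets similar to the daidzein 7-O-methyltransferase of licorice, an isoflavonoid enzyme, fell by 2.37 to 2.53 in roots, with nodule values of 0.28 to 0.39. A thaumatin-family protein (CX708467.1_770) rose 11.5-fold in roots and gave a difference of 4.61 ± 0.55. The resistance protein KR3 (BU578629.1_535) changed by 2.99 in nodules and -0.31 in roots. The beta-amyrin synthase probesets, for an enzyme of triterpene synthesis, went both ways, with 3 higher in roots and 1, BI498434.1_344, higher in nodules at -3.44. The count of 10 higher in roots was 6 with the slide as a fixed block and 5 without nitrate-treated root array 3.

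Of 20 probesets for mineral and water transport, 10 were higher in nodules, 4 were higher in roots and 6 were not called. The study listed 9 of the 20 as lowered in roots, and 56.7% of that list was called higher in nodules. Phosphate transporters made up most of the nodule side. Probesets similar to the pt2 phosphate transporter of Sesbania and the inorganic phosphate transporters were called higher in nodules, 7 in all, with differences from -2.29 to -1.34. A mitochondrial phosphate transporter (CX711484.1_619) was on the other side. It was called higher in roots, fell below background on all nitrate-treated nodule arrays and was not called with the slide as a fixed block (adjusted p = 0.071). Of the sulfate transporter probesets, BE804789.1_469 read 52.4, 33.3 and 45.3 in control nodules and was not well above background on any nitrate-treated nodule array, a fall of at least 5.18-fold. An aquaporin (BM885167.1_466), a water channel, fell 5.33-fold in nodules, from 593, 715 and 687 to 212, 185 and 48.9, with roots at 16.4, 9.32 and 21.3 and 29.5, 25.7 and 26.6 (difference 3.29 ± 0.68). Nitrate-treated nodule array 3 was the lowest of that group.

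Amino acid transport and catabolism was divided, with 6 of 24 probesets higher in roots, 8 in nodules and 10 not called. Over all described probesets 41.4% were higher in roots and 25.1% in nodules. The 24 came from all 4 of the study's lists, 9 from raised in roots, 5 from lowered in roots, 8 from raised in nodules and 3 from lowered in nodules, some from more than 1. Proline dehydrogenase, which starts the oxidation of proline in mitochondria, read 564, 490.3 and 408 in control nodules and 1896, 2307 and 2487 in nodules given nitrate (CF809035.1_561). Roots read 626, 472 and 563 and 472, 512 and 409, with overlapping groups, and the difference was -2.45 ± 0.25 (adjusted p = 0.00053). The second probeset, BE660911.1_670, gave -2.66 ± 0.29. Alanine-glyoxylate aminotransferase AGT2 (AW201054.1_572) was lowered in roots, from 504, 593 and 763 to 198, 148 and 141, and raised in nodules, from 381, 411 and 546 to 1096, 1144 and 1927. Its difference was -3.54 ± 0.36 (adjusted p = 0.00053), and CX548936.1_746, for the same enzyme, gave -2.86 ± 0.31. All 3 probesets of the precursor aspartokinase, the first enzyme of the aspartate family of amino acids, were higher in roots, with differences of 1.67 to 2.23.

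Auxin-related genes were few and divided, 2 of 9 on each side, and 4 were lowered in nodules, where the list median was -1.41. The study had listed 5 of the 9 as lowered in nodules, so that fall largely follows from the choice. Of the probesets read from that list, 70.2% were called higher in roots. For the 7 auxin probesets read above background in both organs the nodule median was -0.44. Aux22 (BE555242.1_78), a repressor of the auxin response that auxin itself induces, read 24.7, 28.0 and 23.0 in control nodules and 110.3, 106 and 152 in nodules given nitrate. Roots read 171, 89.5 and 143 and 75.5, 87.0 and 91.9, with overlapping groups, and the difference was -2.88 ± 0.33 (adjusted p = 0.001). The mung bean-like Aux22d (CX701177.1_752) gave -2.12 ± 0.42. On the root side, an auxin efflux carrier probeset described as PIN5 (CO985424.1_719) fell 4.75-fold in nodules, with a difference of 2.27 ± 0.67 that was lost with the slide as a fixed or random block and called in 6 of 12 fits with 1 array left out. An auxin-responsive family member (BE822093.1_520) rose 2.21-fold in roots (difference 1.58 ± 0.32).

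Nodulins, genes first found through their expression in nodules, were higher in nodules for 4 of 10 probesets and higher in roots for none. The study listed 5 of the 10 as lowered in roots, 4 as raised in roots and 3 as raised in nodules. Of its lowered-in-roots list, 56.7% was called higher in nodules. None of the 10 came from its lowered-in-nodules list, which was read in part. The study reports early nodulins that decreased in nodules. The lack of calls higher in roots is thus no result about nodulins as a group. Nodulin-21 (AW203733.1_45) fell 3.12-fold in roots, to 2521, 7830 and 4460 with nitrate. The nitrate-treated nodules read 57307, 54365 and 73059, all above the control nodules, although the change of 1.73-fold did not pass. The difference was -2.43 ± 0.45 (adjusted p = 0.0063). A nodulin-like EST (BE806216.1_3) fell 15.8-fold in roots, with a difference of -3.31 ± 0.42, and a probeset similar to early nodulin 40 of Sesbania (BQ741901.1_501) changed by 2.13 in roots and 3.08 in nodules and was not called.

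**Figure D4:**
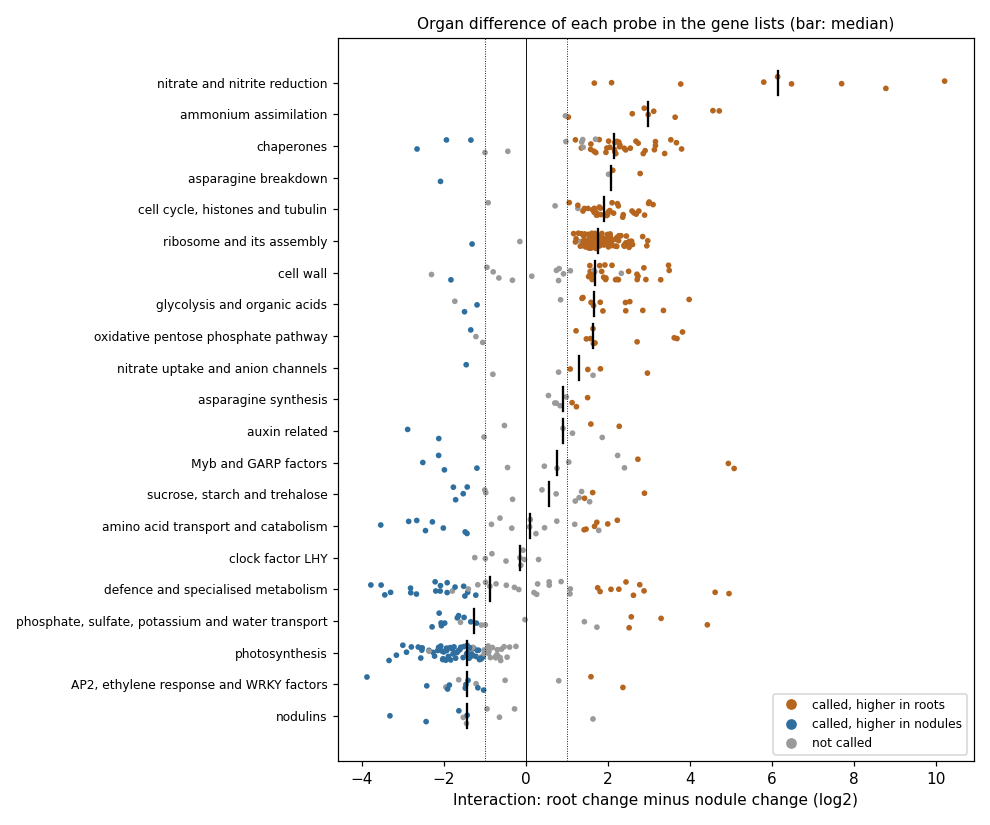
Organ difference (root change minus nodule change, log2) of every tested probeset in 21 gene lists, 1 point per probeset, brown where called higher in roots, blue where called higher in nodules and grey where not called, with the list median as a bar. Nitrate and nitrite reduction lies farthest right with a median of 6.13 over all its 9 tested probesets, ribosome and cell cycle medians are 1.77 and 1.89, photosynthesis has a median of -1.43, and LHY lies about 0.

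The greatest differences over all probesets well above background on all 12 arrays included some without a description. In roots, GMFL01-10-M15-R_587 exceeded the described genes. It read 139.5, 111 and 156 in control roots and 42499, 58681 and 96786 in roots given nitrate, against 3332, 4252 and 3611 and 3602, 2697 and 2001 in nodules, a difference of 9.32 ± 0.42 (adjusted p = 1.6e-06). A leucine-rich repeat protein (CA801769.1_489) rose 21.8-fold in roots, from 109, 90.1 and 199 to 3155, 3085 and 2071, with nodules at 5752, 5453 and 6032 and 5105, 5558 and 5019. As with the glutamine synthetase precursor, control nodules were already high.

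On the nodule side, the undescribed BE659214.1_452 was farthest out, at -4.49 ± 0.93, with nodule values of 460.3, 137 and 61.2 before and 988, 3599 and 1104 after nitrate. The spread within each nodule group was wide. Among described genes the stem-specific protein TSJT1 (BU090383.1_311) rose 14.9-fold in nodules, from 155, 104 and 64.1 to 1025, 1949 and 1718. Roots read 925, 4570 and 1823 and 2470, 2223 and 1257, with overlapping groups, and the difference was -3.95 ± 0.76. Neither held with the slide as a fixed block, at adjusted p values of 0.11 and 0.088. A Ca2+-independent phospholipase A2 (GMFL01-39-J08-R_457), which releases fatty acids from membrane lipids, fell 8.46-fold in roots alone. Its signal went from 2586, 2402 and 2541 to 274, 271 and 351 there and stood at 1315, 1069 and 1478 and 1357, 1662 and 1148 in nodules (difference -3.19 ± 0.25, adjusted p = 0.00013). A peroxidase similar to px12 of Stylosanthes (BI969658.1_480) fell 8.94-fold in roots, with a difference of -3.69 ± 0.66.

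Some genes kept nearly the same change in both organs from very different levels. An aquaporin similar to that of Vernicia (CD391559.1_401) rose in roots from 14582, 12921 and 14984 to 31529, 44134 and 43722, and in nodules from 45.7, 63.8 and 50.1 to 114, 148 and 195. The changes were 2.78-fold and 2.83-fold, and the difference was -0.02 with a 95% interval of -0.71 to 0.66. An annexin, a calcium-dependent membrane-binding protein (GMFL01-11-A08-F_446), rose 2.5-fold and 2.52-fold (interval -0.61 to 0.57). Chalcone synthase (CF805908.1_355), the entry enzyme of flavonoid synthesis, fell 2.75-fold and 2.43-fold (interval -0.73 to 0.38). These were chosen for the closeness of their changes, and the intervals describe how closely the changes could be measured.

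How many probesets were called depended on single arrays and on the slide term. Leaving out control root array 1 gave 6150 probesets higher in roots and leaving out nitrate-treated nodule array 3 gave 1988. The 75th percentile scaling shifts all differences by about the same small amount, so it could not turn the direction of a call. Of the 113 called probesets among the 131 chosen by rule for naming, 86 were still called with the slide as a fixed block. In all 12 fits with 1 array left out, 100 of the 113 were called. None of the 113 changed direction under any alternative, but several alternatives keep the same estimate and could not change it.

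**Figure D5:**
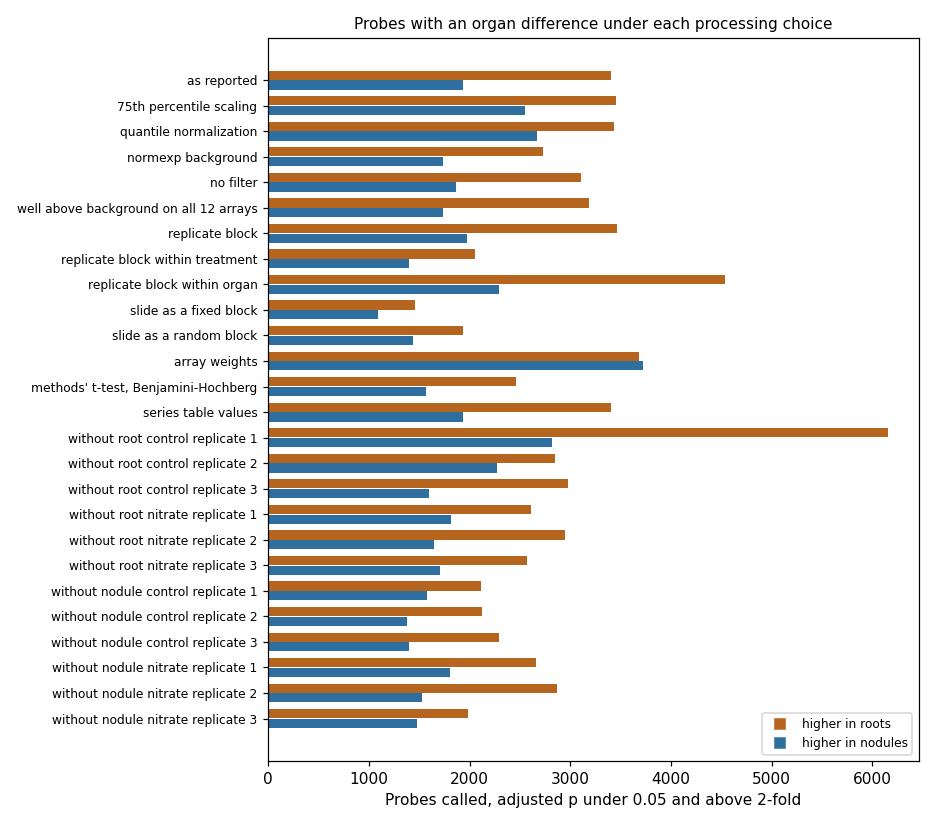
Number of probesets called with an organ difference (adjusted p under 0.05 and above 2-fold) as reported and under each processing alternative, brown for higher in roots and blue for higher in nodules. The count higher in roots ranges from 1459 with the slide as a fixed block to 6150 without control root array 1, and exceeds the count higher in nodules in every setting except with array weights.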

How the data were processed

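Expression was measured on 12 one-colour Agilent soybean arrays (44165 spots), 3 per group. The authors deposited scanner files from Feature Extraction (version 9.5.1 per the labels, 10.5.1.1 per the file headers) and a series table. The intensity values that the authors deposited are background-subtracted processed signals, not scaled between arrays, and the series table holds the same values (529980 of 529980 equal). Outlier spots (106) were left out and no probe was saturated. Each array was scaled to a mean of 2500 and taken to log2, and probes were kept that passed the well-above-background mark on every array of 1 or more groups. The number of arrays, not a read depth, limits the precision. One model of 4 groups was fitted with limma 3.58.1 (R 4.3.3), and its interaction gave the organ difference, with Benjamini-Hochberg adjustment over all probes. All adjusted p values are from limma. The methods name a t-test without pairing, so no block was used in the main fit. Roots and nodules came from the same plants, but which root and nodule pools shared plants is not stated. A block within treatment, which takes same-numbered pools as shared, gave 2054 probesets higher in roots and 1398 in nodules. P-values measure the spread between these 3 samples per group, which the methods call biological replications. Tables were made with Python 3.11.15, pandas 2.3.3, numpy 2.4.6 and scipy 1.17.1. The fit was tested on simulated data.

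Sample titles gave the conditions, and a second label of control root sample 1 carries the number of sample 2. Gene names come from the study's lists of probesets raised or lowered above 2-fold on these arrays (of the list lowered in nodules, 742 probesets were read), so a list's change in the organ it was drawn from is not independent evidence. Gene lists are words matched in those descriptions, a few false matches being removed after values were seen. The members and lists were chosen with earlier results of these data known. Named probesets are, in each direction, the 10 described and the 5 of any kind with the largest differences, up to 4 of each list, all of the nitrate, ammonium and asparagine lists, and the largest with opposite or shared changes. Values given for other members of the lists were chosen after they were seen. Several probesets can read one gene. No probe sequence or genome position was used here. Alternatives were other scalings, normexp, other filters, replicate and slide blocks, array weights, the methods' t-test, and each array left out.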

Additional observations from a re-analysis of the deposited data

Results flagged for a closer look

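The nitrate effect itself differed between the organs, by the interaction test, for the 3402 probesets higher in roots and the 1935 higher in nodules that the results rest on. These are the comparison itself and carry no separate explanation. Among named probesets, 10 changed in opposite directions, each past the test in both organs by the spread of all 12 arrays.

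Raised in roots and lowered in nodules were the lipoxygenase LoxN3 (BE331586.1_538), with an organ difference of 4.95 on the log2 scale, a putative sulphate transporter (BG363521.1_61, 3.91), an EST similar to calmodulin, a calcium sensor (BM887504.1_276, 5.19), an EST similar to a ribosome recycling factor (AW186460.1_596, 4.45), and a SAM-dependent methyltransferase (CX708103.1_883, 3.85). The calmodulin-like probeset had no control root or nitrate-treated nodule array well above background, so that its size is not well measured.

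Lowered in roots and raised in nodules were the aminotransferase AGT2 (AW201054.1_572, -3.54), lipoxygenase-1 (CK768357.1_636, -3.78), a glycerol-3-phosphate acyltransferase (CA801513.1_735, -2.88), and BQ079609.1_476 and GMFL01-44-O21-R_325, both similar to uncharacterised proteins (-3.14 and -2.93). No nitrate-treated root array read lipoxygenase-1 well above background. Its difference is thus known only as a bound, -1.99 or beyond, and its root fall as at least 1.19-fold. All kept their sign under every alternative run, although several of these could not change it. BQ079609.1_476 missed the threshold with the slide as a fixed block. With each organ fitted on its own 6 arrays, the called probesets with opposite changes were 34 in place of 151.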

How the results depend on the processing

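Of the called probesets 85.9% were measured in all groups, as were 31044 of the 36425 tested, and the others lack a signal above background in part of the arrays. Of 3024 comparisons of a named called probeset with an alternative, 2909 stayed on the same side of the threshold with the same sign, 115 lost the call and 0 changed sign. The slide as a fixed block gave 1459 probesets higher in roots and 1093 in nodules, a median organ difference of -0.0417 and a correlation of 0.13 between the organs, and as a random block 1937 in roots. Slide, control root array 1 and nitrate-treated nodule array 3 are tied together in that fit, and the cause of the loss was not tested. Array weights gave 3684 in roots and 3723 in nodules (619 and 738 above 4-fold) and a correlation of 0.0796. Normexp gave 327 and 238 above 4-fold.

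The fit with the replicate number as a replicate block gave 3462 and 1975 probesets (908 and 476 above 4-fold). A block within treatment, for root and nodule pools from shared plants, gave 2054 and 1398. A block within organ, added after seeing the data, gave 4537 and 2290. That last block also called NRT2 (adjusted p = 0.048) and the asparaginase CF805961.1_241 (0.027). Deviations of same-numbered arrays correlated at 0.30 to 0.55 between root groups, at 0.006 to 0.12 between nodule groups and at -0.23 to 0.11 across organs. Every root pair was above 0.1 but not every nodule pair or pair across organs, so the numbers were not taken as pairs.

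Without 1 array, the counts ran from 1988 to 6150 in roots and from 1376 to 2821 in nodules, from 511 to 1513 and from 374 to 697 above 4-fold, the median difference from 0.006 to 0.26 and the correlation from -0.0719 to 0.0850. Counts moved by over 1.5 times without control root array 1 (6150), control root array 2 (511 above 4-fold), nitrate-treated nodule array 3 (1988), or control nodule arrays 1 and 2 (2111 and 2124). Named calls were lost without control root array 1, control nodule array 3 or nitrate-treated nodule array 2 (GSbeta1, down to 0.96), without control nodule array 2 or nitrate-treated nodule array 3 (cyclin a1-type), without nitrate-treated root array 3 or control nodule arrays 2 or 3 (the xyloglucan transferase), without control nodule array 3 or nitrate-treated nodule array 2 (BE821385.1_549), without control nodule array 3 (GMFL01-29-C05-R_524) and without nitrate-treated nodule array 1 (AW760651.1_483, 0.89). The t-test of the methods called 4363 and 2322 at its own threshold, and 2460 and 1565 after Benjamini-Hochberg adjustment.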
